A study of Mus musculus with 6 samples.

Results

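Expression of 10 genes was examined in monocytes sorted from mouse B16F10-mCherry melanoma, a transplanted skin tumour line. The genes encode 6 S100 proteins (S100a4, S100a6, S100a8, S100a9, S100a10 and S100a11) and 4 secreted or granule proteins found in neutrophils (Lcn2, Chil3, Elane and Retnlg). Of these, Chil3 is also a product of monocytes and macrophages. They were chosen by name, and all 10 were found among the 56980 genes of the deposited count table. The sorted population (CD11b+ Ly6Chi Ly6G-) carries the WT genotype label in all 6 libraries. There were 3 libraries from the LNP-GFP treatment, lipid nanoparticles named for green fluorescent protein, and 3 from LNP-Gsdme, which delivered mRNA of gasdermin E, a pore-forming protein of lytic cell death. The sources used here give no dose, no time after treatment and no age or sex of the mice. Whether the libraries of a group are from separate mice is not stated, and p-values therefore reflect only the variation among these samples, which may be technical.

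S100 proteins are small calcium-binding proteins. S100A8 and S100A9 pair to form calprotectin, which fills the cytosol of neutrophils and is also carried by classical monocytes. When cells die or are activated it is released and acts as an alarmin, a danger signal read by Toll-like receptor 4 and by the receptor RAGE. S100A4, S100A6, S100A10 and S100A11 are expressed far more broadly, in stromal and tumour cells as well as in leukocytes. The granule genes mark stages of the neutrophil lineage: Elane (neutrophil elastase) is transcribed in early granulocyte precursors, whereas Lcn2 (lipocalin 2, which binds bacterial siderophores) and Retnlg (resistin-like gamma) come later. Chil3 encodes the chitinase-like lectin Ym1, which monocytes and macrophages can make too. A subset of Ly6C-high monocytes that carries such granule transcripts is commonly called neutrophil-like.

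All 6 S100 members lie on chromosome 3 (GRCm39). S100a4 (90511078 to 90513352) and S100a6 (90520189 to 90531488) lie before S100a8 (90576285 to 90577342) and S100a9 (90599939 to 90603028), with 44.8 kb between S100a6 and S100a8. S100a8 and S100a9 are 22.6 kb apart. S100a11 (93427795 to 93433594) and S100a10 (93462387 to 93471950) lie 28.8 kb from each other, and S100a11 starts 2825 kb after S100a9. Chil3 is on chromosome 3 as well (106054870 to 106074880), Lcn2 on chromosome 2 (32274645 to 32278264), Elane on chromosome 10 (79722081 to 79724049) and Retnlg on chromosome 16 (48692984 to 48694859). The S100a4 interval overlaps a predicted gene, so reads in the overlap could have been counted for either.

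C/EBP factors are known regulators of granule genes, and the bases before the listed start of the members were searched for a C/EBP-like motif. The 3 members that hold it are shown, with S100a8 as the partner of S100a9. S100a4, S100a6, S100a11, Chil3 and Elane were searched too, hold no match and are not shown. The sequences are the 250 bases before the start in RefSeq on GRCm38.p6, an earlier build than that of the gene positions, and 9 of the 10 members were matched there. Capitals mark the motif, TTGCNNAA on either strand (TTNNGCAA on the other), where N is any base.
S100a9, chr3:90695722-90695971, minus strand: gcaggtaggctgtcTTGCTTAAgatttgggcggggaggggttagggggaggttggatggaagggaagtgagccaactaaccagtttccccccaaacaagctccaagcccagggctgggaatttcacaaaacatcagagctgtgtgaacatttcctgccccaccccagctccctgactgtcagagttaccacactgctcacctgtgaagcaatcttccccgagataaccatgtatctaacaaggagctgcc
Lcn2, chr2:32387740-32387989, minus strand: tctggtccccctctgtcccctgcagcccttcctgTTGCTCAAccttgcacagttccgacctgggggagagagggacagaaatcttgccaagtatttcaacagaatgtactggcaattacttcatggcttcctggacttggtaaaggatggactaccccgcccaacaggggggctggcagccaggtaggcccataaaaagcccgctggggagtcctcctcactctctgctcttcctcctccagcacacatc
Retnlg, chr16:48872358-48872607, plus strand: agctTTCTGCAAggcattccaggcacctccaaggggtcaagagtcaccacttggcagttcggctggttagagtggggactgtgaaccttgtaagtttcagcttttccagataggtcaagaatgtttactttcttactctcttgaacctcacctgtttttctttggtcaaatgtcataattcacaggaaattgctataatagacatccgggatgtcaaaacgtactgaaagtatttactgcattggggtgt
S100a8, chr3:90668821-90669070, plus strand: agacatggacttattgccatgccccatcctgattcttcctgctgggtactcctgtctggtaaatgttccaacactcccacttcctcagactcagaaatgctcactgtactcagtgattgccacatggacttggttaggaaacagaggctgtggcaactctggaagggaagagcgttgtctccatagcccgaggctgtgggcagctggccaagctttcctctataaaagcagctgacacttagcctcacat

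The motif was found in 3 of the 9 matched members, namely S100a9, Lcn2 and Retnlg. It begins 236, 216 and 246 bases before their listed starts. Among all 32851 RefSeq promoter windows of this length, 9.56% held it. A match describes letters in a window and is not a binding site, and the absence of a match before S100a8 says only that these letters are not in that window.

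Library totals ran from 20233559 to 22932095 counts in LNP-GFP and from 15991826 to 18751784 in LNP-Gsdme, and CPM values are counts scaled by library total and TMM factor. Values of a group are given in the order of its replicates 1, 2 and 3, and each fold change is LNP-Gsdme over LNP-GFP with its SE from n = 3 libraries per group. For most genes that differed widely between LNP-GFP 1 and LNP-GFP 2, LNP-GFP 3 lay between them. Of 111 genes that differed at least 4-fold between LNP-GFP 1 and LNP-GFP 2, 103 had a level in LNP-GFP 3 between theirs. These genes were chosen for that gap, which makes a level inside it likely, so the count alone does not tell how the libraries are related. The median position over the 111 genes was 0.501 of the way, with quartiles of 0.433 and 0.582. Whether LNP-GFP 3 is independent of LNP-GFP 1 and LNP-GFP 2 is not stated and was not tested. If it is not, n = 3 overstates the replication of LNP-GFP. All 9 Ly6C-high monocyte markers had counts in every library. Ly6g, the antigen that the sort excluded, was near 0, with 0, 8 and 2 counts in LNP-GFP and 11, 3 and 3 counts in LNP-Gsdme. Other cell types were represented, and their summed markers are given beside the results they moved with.

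Of the 10 members, Elane rose in LNP-Gsdme, 0 fell and 9 did not pass the test (edgeR's quasi-likelihood test, with p-values adjusted by Benjamini-Hochberg over 16010 genes and a threshold of 0.05). Of all genes tested, 11.6% were called, 6.30% as higher and 5.32% as lower, so 1 member of 10 is near the background. Elane passed the low-count filter through its LNP-Gsdme libraries alone and had to differ to be tested, so its call is given as a description and the count supports nothing. At an unadjusted p below 0.05, S100a6 joined Elane among the higher genes and 0 members were lower, and by limma-voom and DESeq2 0 fell as well. The groups did not overlap for 2 of 10 members, S100a6 and Elane, both higher in LNP-Gsdme, against 37.8% of all tested genes in either direction and 19.6% in that direction. The median log2 fold change of the members was -0.14, against -0.01 over all genes tested. The members divided by how they varied within the groups. S100a8, S100a9, Lcn2 and Chil3 differed 7.49- to 10.6-fold between LNP-GFP libraries, and Retnlg 39.7-fold, with 11 counts in LNP-GFP 1. In contrast, S100a4, S100a6, S100a10 and S100a11 differed by at most 1.56-fold in either group.

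**Figure D1:**
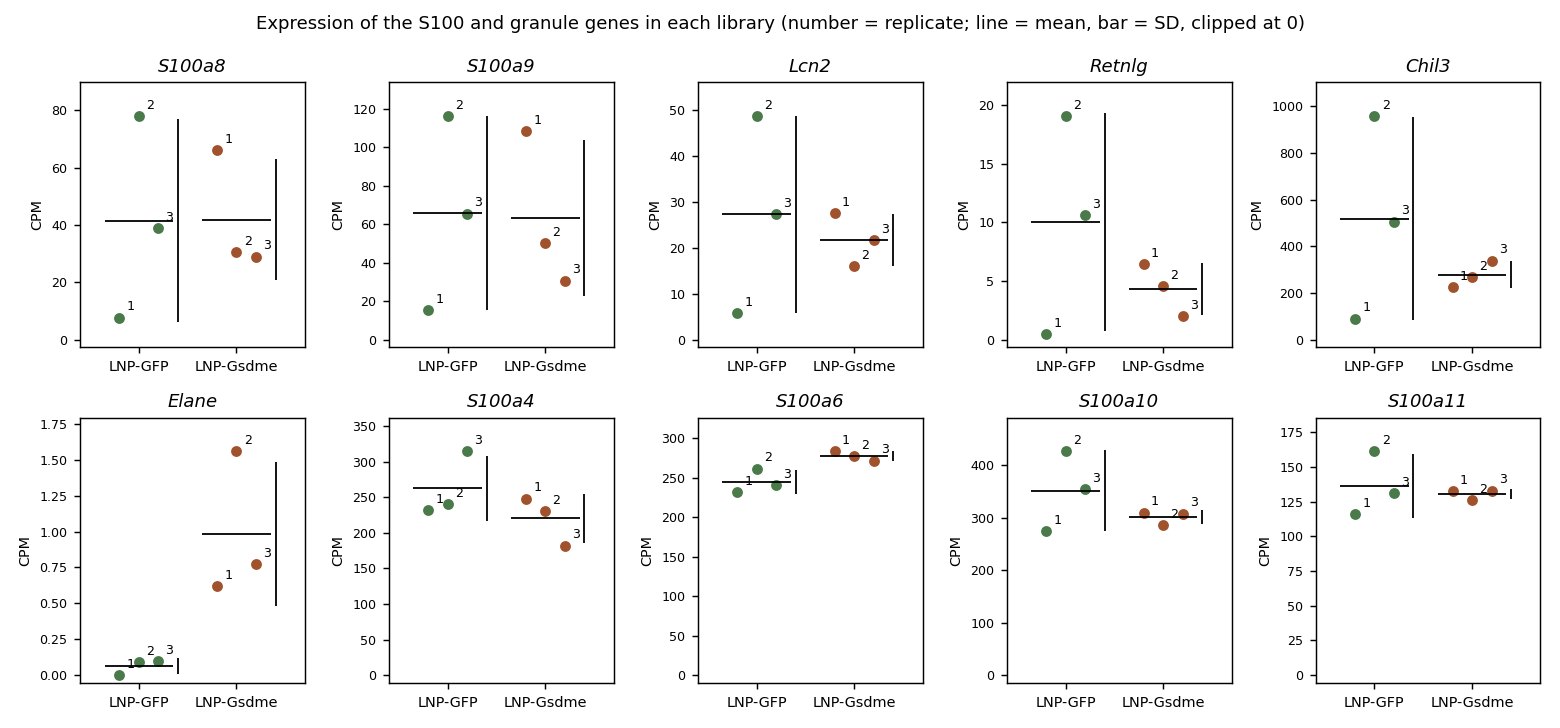
Expression of each member in CPM (linear axis) in the 3 LNP-GFP and 3 LNP-Gsdme libraries, with points numbered by replicate, a line for the mean and a bar for the SD clipped at 0. S100a8, S100a9, Lcn2, Retnlg and Chil3 were lowest in LNP-GFP 1 and highest in LNP-GFP 2, so the LNP-Gsdme libraries lay inside the LNP-GFP range, while for S100a6 and Elane the groups did not overlap.

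S100a8 and S100a9, the calprotectin subunits, did not differ between the treatments beyond the spread of the libraries. S100a8 measured 7.72, 78.0 and 38.9 CPM in the LNP-GFP libraries and 66.1, 30.5 and 29.0 CPM in the LNP-Gsdme libraries. The LNP-Gsdme libraries all lay inside the range set by LNP-GFP 1 and LNP-GFP 2. S100a9 measured 15.5, 116 and 65.6 CPM in the LNP-GFP libraries and 108, 50.3 and 30.8 CPM in the LNP-Gsdme libraries, with the same lowest and highest libraries. The log2 fold change of S100a8 was 0.01 ± 0.75 and that of S100a9 was -0.06 ± 0.74 (edgeR quasi-likelihood adjusted p = 0.994 and 0.966). The 95% interval of S100a8 ran from -1.78 to 1.81 and that of S100a9 from -1.82 to 1.71, so rises and falls up to those sizes lie within the error of these libraries.

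The sign of both genes depended on single libraries. Without LNP-GFP 1 the log2 fold change of S100a8 was -0.47 and that of S100a9 was -0.52. Without LNP-GFP 2 the values were 0.85 and 0.65. Without LNP-Gsdme 1, the library of its group with the most of both, they were -0.48 and -0.70. None of these passed the test (edgeR adjusted p from 0.492 to 0.763 for these 6 values).

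The ratio of the subunits was not constant, and within each group it moved less than their levels. Per length, from the deposited FPKM, S100a9 exceeded S100a8 in all 6 libraries, by 2.72-, 2.02- and 2.28-fold in LNP-GFP and by 2.22-, 2.23- and 1.44-fold in LNP-Gsdme. LNP-Gsdme 3 had the lowest ratio. Its S100a9 was the lowest of the LNP-Gsdme group and its S100a8 was close to that of LNP-Gsdme 2.

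The late granule genes Lcn2 and Retnlg had the same lowest and highest libraries as the calprotectin genes, and did not differ between the treatments beyond the spread. Lcn2 measured 5.80, 48.8 and 27.3 CPM in the LNP-GFP libraries and 27.5, 16.03 and 21.7 CPM in the LNP-Gsdme libraries. Retnlg measured 0.480, 19.1 and 10.6 CPM in the LNP-GFP libraries and 6.40, 4.55 and 2.01 CPM in the LNP-Gsdme libraries. The groups overlapped for both genes, with LNP-GFP 1 below and LNP-GFP 2 above all LNP-Gsdme libraries. The log2 fold change of Lcn2 was -0.33 ± 0.66 and that of Retnlg was -1.22 ± 1.03 (edgeR adjusted p = 0.760 and 0.446). Without LNP-GFP 2 the value of Lcn2 was 0.41 and that of Retnlg was -0.35. Without LNP-GFP 1 they were -0.80 and -1.78 (adjusted p = 0.131 and 0.0594).

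Chil3 had the widest range in LNP-GFP after Retnlg. It measured 90.4, 959 and 506 CPM in the LNP-GFP libraries and 225, 268 and 339 CPM in the LNP-Gsdme libraries. The LNP-Gsdme libraries lay close together, above LNP-GFP 1 and below LNP-GFP 2 and LNP-GFP 3. Over all libraries the log2 fold change was -0.90 ± 0.72 (edgeR adjusted p = 0.421; 95% interval -2.63 to 0.82). Without LNP-GFP 1 it was -1.39 and passed the test (edgeR adjusted p = 0.0370), in a fit that called 9.96% of genes higher and 7.45% lower. Without LNP-GFP 2 it was -0.09 (adjusted p = 0.944), in a fit that called 3.67% higher and 2.18% lower. The pseudogene Gm6522 lies 108 kb away and held 2.04 to 2.51% of the Chil3 count in every library, so reads shared between the loci could have been counted for either.

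Elane was nearly absent in LNP-GFP and low in LNP-Gsdme. It had 0, 2 and 2 counts in LNP-GFP and 11, 25 and 15 counts in LNP-Gsdme. In CPM that was 0, 0.0916 and 0.0999 against 0.618, 1.56 and 0.773, and the groups did not overlap. A count of 0 in LNP-GFP 1 allows up to 0.131 CPM (3 counts). Summed by group, 51 counts against 4 gave a 15.5-fold ratio after scaling by library size, with an exact 95% interval of 5.70 to 59.1 that covers counting error only. The log2 fold change was 3.84 ± 0.72 (edgeR adjusted p = 0.0259, with 0.0238 to 0.110 over the alternatives that gave one). The limit of that filter was 0.513 CPM, which 3 LNP-Gsdme and 0 LNP-GFP libraries passed. Leaving out LNP-GFP 2, LNP-GFP 3, LNP-Gsdme 1 or LNP-Gsdme 2 ended the call (edgeR adjusted p = 0.0592, 0.110, 0.0771 and 0.0926), at log2 fold changes of 3.37 to 4.27.

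The broadly expressed S100 genes did not pass the test, and varied over a narrower range than the alarmin and granule members. S100a6 (calcyclin) measured 231, 262 and 241 CPM in the LNP-GFP libraries and 284, 277 and 272 CPM in the LNP-Gsdme libraries. The LNP-Gsdme libraries were all above the LNP-GFP libraries, by a small margin that did not pass the test, at a log2 fold change of 0.18 ± 0.07 (edgeR adjusted p = 0.150). S100a4, known from migrating fibroblasts and metastatic cells, measured 232, 240 and 315 CPM in the LNP-GFP libraries and 248, 231 and 182 CPM in the LNP-Gsdme libraries. Its highest library was LNP-GFP 3 and its lowest LNP-Gsdme 3, and the other 4 ran from 231 to 248 CPM.

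S100a10, the partner of annexin A2 at the cell membrane, measured 274, 426 and 355 CPM in the LNP-GFP libraries and 310, 285 and 308 CPM in the LNP-Gsdme libraries. S100a11, a partner of annexin A1, measured 116, 161 and 131 CPM in the LNP-GFP libraries and 132, 126 and 133 CPM in the LNP-Gsdme libraries. Both shared the lowest and the highest library with S100a8 and S100a9, over a much narrower range. The log2 fold changes were -0.25 ± 0.16 for S100a4, -0.23 ± 0.16 for S100a10 and -0.06 ± 0.13 for S100a11 (edgeR adjusted p = 0.326, 0.364 and 0.757). The 95% intervals of these 3 genes reached from -0.64 at the lowest to 0.24 at the highest.

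The order of the levels can be read from the deposited FPKM, which is per length. In LNP-GFP the mean was 311 ± 53.8 FPKM for S100a4, 263 ± 41.7 for S100a11, 246 ± 204 for Chil3 and 214 ± 44.3 for S100a10 (SD, n = 3), and each differed from the next by less than the larger SD of the pair. S100a6 followed at 125 ± 6.58, S100a9 at 88.9 ± 67.5, S100a8 at 41.5 ± 34.9, Retnlg at 16.6 ± 15.3, Lcn2 at 5.52 ± 4.31 and Elane at 0.0638 ± 0.0555 FPKM (SD, n = 3). In LNP-Gsdme the order was the same but for Chil3, which came after S100a6 (135 ± 31.5 against 145 ± 0.929 FPKM; SD, n = 3). That pair lay within the spread of Chil3. In LNP-GFP, S100a6 lay below S100a10 by more than either SD. S100a9 differed from S100a6 by less than its own SD but by more than that of S100a6. S100a8, Retnlg and Lcn2 each differed from the gene before by less than the larger SD, and Elane from Lcn2 by more than either SD.

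The width of the spread set the variable members apart from most genes. Over 11547 genes whose average log2 CPM was 2 or more, the median SD of log2 CPM among the LNP-GFP libraries was 0.15. S100a8 had an SD of 1.703, S100a9 of 1.49, Lcn2 of 1.58, Chil3 of 1.76 and Retnlg of 2.70, each larger than in 99.7% of these genes or more. Among the LNP-Gsdme libraries the SD was 0.67 for S100a8, 0.91 for S100a9, 0.39 for Lcn2, 0.30 for Chil3 and 0.83 for Retnlg, against a median of 0.12. Of the broadly expressed S100 genes, S100a6 was narrower than the median gene in both groups, at 0.09 and 0.03. S100a4 was wider than the median gene in both, at 0.24 and 0.23. S100a10 (0.32 and 0.07) and S100a11 (0.24 and 0.04) were wider than the median gene in LNP-GFP and narrower in LNP-Gsdme. That S100a8 and S100a9 vary within groups was known when the genes were chosen, so these values are a description.

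**Figure D2:**
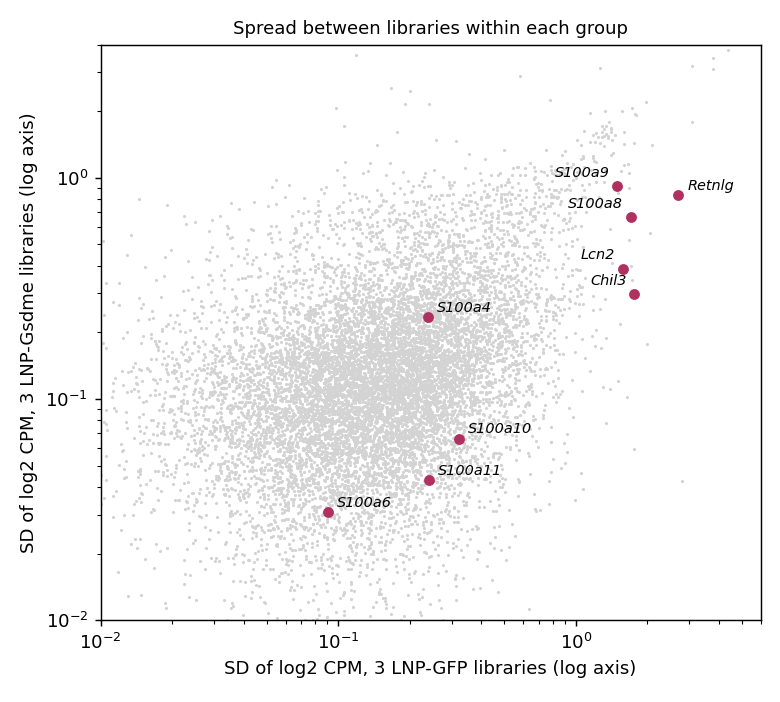
SD of log2 CPM among the 3 LNP-GFP libraries (x, log axis) against that among the 3 LNP-Gsdme libraries (y, log axis) for 11547 genes whose average log2 CPM was 2 or more (grey) and the 9 members above that level (red). S100a8, S100a9, Lcn2, Chil3 and Retnlg lie at the far right with SDs of 1.49 to 2.70 in LNP-GFP, while S100a6 lies at 0.09 and 0.03.

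**Figure D3:**
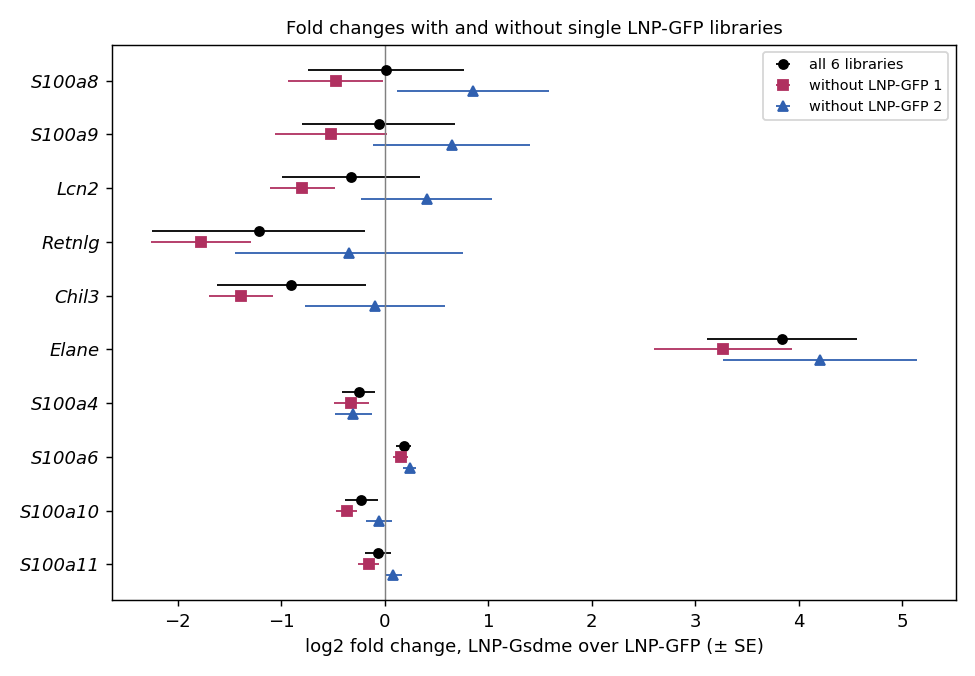
Log2 fold change of each member, LNP-Gsdme over LNP-GFP, with its SE, from all 6 libraries (black) and without LNP-GFP 1 (red) or LNP-GFP 2 (blue). S100a8, S100a9 and Lcn2 lie below 0 without LNP-GFP 1 and above 0 without LNP-GFP 2, while Elane stays between 3.27 and 4.20 in these fits.

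The 5 genes whose centred log2 CPM over the 6 libraries lay nearest to the mean of S100a8 and S100a9 were Lcn2, Ngp, Asprv1, Xiap and Tspan5, out of 10273 genes compared. Their root mean square differences were 0.36, 0.41, 0.43, 0.49 and 0.50 on the log2 scale. Ngp (neutrophilic granule protein) measured 1.92, 30.3 and 16.4 CPM in the LNP-GFP libraries and 12.6, 8.80 and 5.72 CPM in the LNP-Gsdme libraries. Asprv1, an aspartic protease also known from neutrophils, measured 3.84, 29.9 and 16.1 CPM and then 16.1, 7.30 and 4.999 CPM. Within each group Ngp and Asprv1 had the order of S100a9. These profiles share their libraries and depth, so the likeness is a description. For Chil3 the nearest genes were Cldn12, Apod, Lcn2, Hba-a2 and Zfp358, at 0.36, 0.41, 0.42, 0.48 and 0.49. Lcn2 was the only gene on both lists, and Ngp and Asprv1 were not on the list of Chil3.

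Cell type markers were summed over each list to set beside these profiles. In bulk samples fewer cells of a type and less RNA per cell cannot be told apart. The 12 neutrophil markers summed to 304, 437 and 366 CPM over the LNP-GFP libraries and 472, 411 and 331 CPM over the LNP-Gsdme libraries. The sum ranged 1.44-fold in LNP-GFP, and most of it was Il1r2, the decoy receptor for interleukin 1, and Csf3r, the receptor for granulocyte colony-stimulating factor, which ranged 1.48- and 1.17-fold. Other markers of the list ranged further, among them Ngp by 15.8-fold, Asprv1 by 7.78-fold, Camp by 6.75-fold, Stfa2l1 by 3.57-fold and Ltf by 3.45-fold, against 10.1-fold for S100a8. Of the 12 markers, 10 had the LNP-GFP order of S100a8 (LNP-GFP 1 below LNP-GFP 3 below LNP-GFP 2), an order that 30.7% of all tested genes had. Among the 111 genes that differed at least 4-fold between LNP-GFP 1 and LNP-GFP 2, 85 were higher in LNP-GFP 2 and 26 in LNP-GFP 1. LNP-GFP 3 lay between in 103 of them, so for such genes the order mainly says that LNP-GFP 2 exceeded LNP-GFP 1. In every library 11 of the 12 had counts. Padi4, which converts arginine to citrulline in histones, rose (log2 fold change 1.53 ± 0.13 SE, edgeR adjusted p = 0.00473). Cd177 fell and 9 of 11 tested did not pass, against 11.6% of all tested genes called in either direction.

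The 7 melanoma markers summed to 284, 1725 and 1022 CPM over the LNP-GFP libraries and 83.2, 133 and 684 CPM over the LNP-Gsdme libraries and all 7 had counts in every library. In both groups they had the order of Chil3, lowest in LNP-GFP 1 and LNP-Gsdme 1 and highest in LNP-GFP 2 and LNP-Gsdme 3. S100a8, S100a9 and Retnlg had that order in LNP-GFP only, and were highest in LNP-Gsdme 1 where melanoma markers were lowest. Within LNP-Gsdme Chil3 ranged only 1.51-fold, against 83.2 to 684 CPM for the melanoma markers. Of all tested genes 30.7% had the LNP-GFP order, and the share with the order of both groups was not counted. NK cell markers (6 genes) ran the other way in LNP-GFP, at 392, 89.0 and 233 CPM, and measured 537, 466 and 405 CPM in LNP-Gsdme. T cell markers (6 genes) did so too, at 456, 151 and 301.5 CPM, against 392 to 505 CPM in LNP-Gsdme. Macrophage markers (8 genes) measured 4945, 3125 and 4315 CPM, against 2989 to 3267 CPM in LNP-Gsdme. The part of these cell types in the levels of the members was not tested.

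Fibroblasts also express S100a4, S100a6, S100a10 and S100a11. Fibroblast markers (9 genes, all with counts in every library) summed to 9079 to 10138 CPM in LNP-GFP and 2171 to 5636 CPM in LNP-Gsdme. Of the 9 fibroblast markers 5 fell by edgeR, against 5.32% of all tested genes. The part of these cells in the levels of the S100 genes was not tested. Progenitor markers were low: the 7 genes summed to 30.6 to 36.7 CPM in LNP-GFP and 22.7 to 30.8 CPM in LNP-Gsdme. Keratinocyte markers, whose cells can express S100a8 and Lcn2, summed to at most 1.96 CPM in any library, and 1 of the 5 was at 0 in all. Over all 6 libraries the highest mean CPM of each list was that of Csf1r (monocyte), Il1r2 (neutrophil), Dct (melanoma), Gzmb (NK cell), Cd8a (T cell), Apoe (macrophage), Col1a1 (fibroblast), Kit (progenitor) and Krt10 (keratinocyte). In LNP-Gsdme alone Csf1r lay below Ly6c2, Dct below Tyrp1 and Apoe below C1qb.

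**Figure D4:**
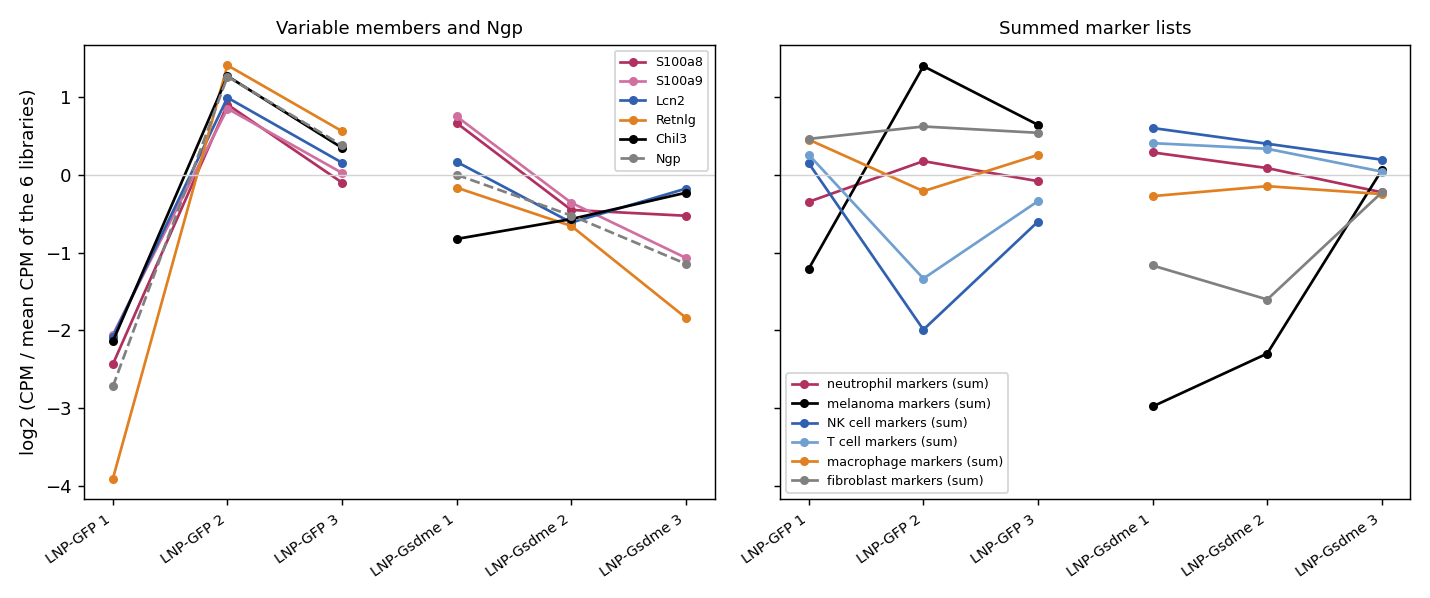
Log2 of CPM over the mean of the 6 libraries for the 5 variable members and Ngp (left) and for summed marker lists (right); lines join points of 1 gene or list within a group and imply no order of replicates. LNP-GFP 1 is the lowest and LNP-GFP 2 the highest of the 6 libraries for all 6 genes. Within LNP-GFP alone melanoma markers share that order and NK and T cell markers show the reverse.

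Receptors and binding partners of S100 proteins included 4 called genes. Of 12 tested, Tlr4 rose, Cd14, Cd36 and Bsg fell and 8 did not pass, with a median log2 fold change of -0.16. For this list and those below, the shares over all tested genes were 6.30% called higher and 5.32% called lower. Tlr4, a receptor for S100A8/S100A9, rose from 9.42, 13.6 and 9.64 CPM to 71.5, 77.4 and 57.7 CPM, with no overlap of the groups (log2 fold change 2.66 ± 0.19 SE; edgeR adjusted p = 0.00292). Its co-receptor Cd14 fell by 0.69 ± 0.10 while its partner Ly96 had a log2 fold change of 0.01 ± 0.14 (edgeR adjusted p = 0.0140 and 0.952). Cd36, which takes up lipids and binds S100A8/S100A9 with arachidonic acid, fell by 1.01, and Bsg, a receptor for S100A9, fell by 0.42. Ager, which encodes RAGE, measured 0.258 to 1.10 CPM over the 6 libraries. Anxa2, the partner of S100a10, and Anxa1 did not pass, at -0.16 and -0.23 on the log2 scale (edgeR adjusted p = 0.325 and 0.176).

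Of the 10 other S100 genes only 4 were abundant enough to test (S100a1, S100a13, S100a16 and S100b), with a median log2 fold change of -0.60, and 0 passed by edgeR, DESeq2 or limma-voom. At an unadjusted p below 0.05 S100a1 alone was lower, at -0.54 on the log2 scale (edgeR adjusted p = 0.124). S100a13 measured 27.95, 25.5 and 24.9 CPM in LNP-GFP and 30.3, 30.4 and 27.98 CPM in LNP-Gsdme. Relatives and receptors of the secreted members were mostly silent, with 2 of 9 tested and 0 passing by edgeR, DESeq2 or limma-voom (1 lower at an unadjusted p below 0.05, Slc22a17, a receptor for lipocalin 2, with an edgeR adjusted p of 0.0538). Chil1, a chitinase-like gene of neutrophils and macrophages, measured 1.35, 13.6 and 7.44 CPM in the LNP-GFP libraries and 5.28, 2.99 and 1.44 CPM in the LNP-Gsdme libraries, which is the library order of Retnlg.

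Other granule genes moved in both directions. Of 14 genes listed for specific and gelatinase granules, Fcnb (ficolin B) rose, Cd177 fell and 12 did not pass, with a median log2 fold change of -0.25. Fcnb measured 0.392, 1.10 and 0.899 CPM in the LNP-GFP libraries and 3.99, 3.99 and 2.06 CPM in the LNP-Gsdme libraries (log2 fold change 2.06 ± 0.43 SE; edgeR adjusted p = 0.0333). Cd177, a surface protein of neutrophils, went from 35.5, 50.2 and 44.9 CPM to 12.1, 13.97 and 9.43 CPM (log2 fold change -1.88 ± 0.19 SE; adjusted p = 0.00624). Of 7 tested genes of azurophil granules, the early stage, and of their handling, Cd63, a tetraspanin of lysosomes and azurophil granules, fell by 1.04 on the log2 scale and 6 did not pass.

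Prtn3 and Mpo, picked after their values were seen because they mark the same stage as Elane, had higher means in LNP-Gsdme and did not pass. Prtn3 (proteinase 3) lies 3.07 kb from Elane and measured 1.40, 2.75 and 1.998 CPM in the LNP-GFP libraries and 4.27, 3.68 and 4.02 CPM in the LNP-Gsdme libraries (log2 fold change 0.96 ± 0.26 SE; edgeR adjusted p = 0.0615). Mpo (myeloperoxidase) measured 0.305, 0.641 and 0.450 CPM and then 1.35, 2.43 and 0.412 CPM (log2 fold change 1.56 ± 0.65 SE; adjusted p = 0.158). As for Elane, LNP-Gsdme 2 had the most Mpo, but the groups overlapped through LNP-Gsdme 3. Of the other progenitor markers Kit, the receptor for stem cell factor, fell from 16.7, 17.5 and 19.98 CPM to 8.43, 12.9 and 9.33 CPM (log2 fold change -0.82 ± 0.18 SE; edgeR adjusted p = 0.0356). Flt3, a receptor of early progenitors and dendritic cells, did not pass, at -1.05 ± 0.28 on the log2 scale (adjusted p = 0.0565). Ctsg and Ms4a3 were too low to test, at no more than 0.361 CPM in any library.

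Of 11 regulators of granule genes, Klf4 and Cebpb rose, Cebpd fell and 8 did not pass, with a median log2 fold change of 0.29. Klf4, a factor of monocyte differentiation, rose by 0.51 ± 0.09, Cebpb, which drives monocyte and emergency granulocyte programmes, by 0.35 ± 0.09, and Cebpd fell by 0.49 ± 0.12 on the log2 scale (edgeR adjusted p = 0.0248, 0.0478 and 0.0433). Cebpe, which late granule genes require, measured 3.01 to 4.595 CPM in LNP-GFP and 4.30 to 5.05 CPM in LNP-Gsdme. The 6 related lists held 4, 12, 7, 14, 2 and 11 tested genes, with Chil1 shared between lists. In these lists 4 genes rose and 6 fell, against 6.30% and 5.32% of all tested genes. Without LNP-GFP 3, LNP-Gsdme 1 or LNP-Gsdme 2 these counts were 1 and 1 each, and without LNP-GFP 2 they were 2 and 3. Tlr4 and Cd177 passed in all 15 alternatives tried. The call was lost in 4 of the 15 for Cd14 and Cd36, in 5 for Bsg, Fcnb and Klf4, in 7 for Cebpd, in 8 for Cd63 and in 9 for Cebpb.

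**Figure D5:**
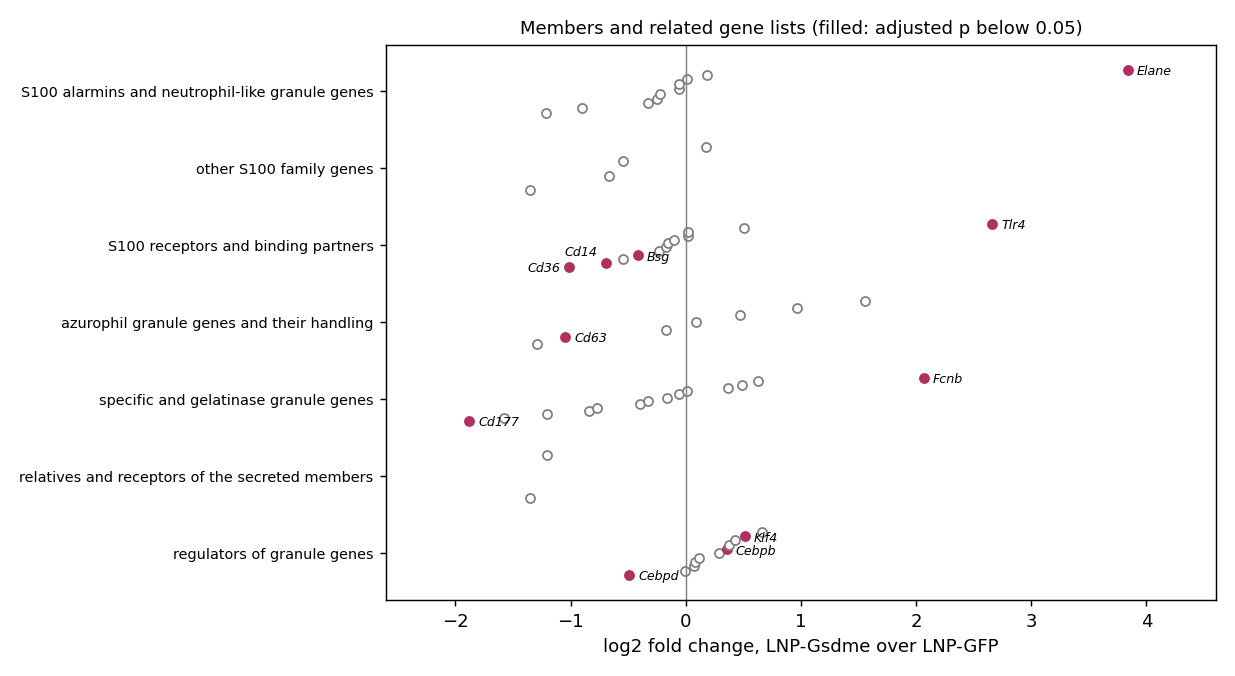
Log2 fold change, LNP-Gsdme over LNP-GFP, of the tested members and the tested genes of 6 related lists; filled points have an adjusted p below 0.05 and are named. Elane (3.84) and Tlr4 (2.66) are farthest to the right and Cd177 (-1.88) farthest to the left.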

How the data were processed

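RNA from 6 sorted samples was sequenced as paired-end TruSeq libraries, per the labels' protocols. The authors deposited 1 table with whole-number counts and FPKM per gene and library, per the file headers. Their build was GRCm39 (source: per the submitters' processing notes). The sources used here name no aligner, counter, strand setting or annotation release, so overlapping or near-identical genes are uncertain. Groups come from the treatment label and replicate numbers from the titles.

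Counts were analysed with edgeR 4.0.16 in R 4.3.3 (filterByExpr, 16010 genes kept, TMM, robust quasi-likelihood test, Benjamini-Hochberg). The fit was also run on simulated data that gave every gene the same variation and placed changes only in well-counted genes. That run therefore does not cover the widely varying members or Elane. SE is the absolute log2 fold change over the square root of F. Profiles and SDs use log2 CPM with a prior count of 2. The deposited FPKM served only to compare levels between genes. Fits with DESeq2 1.42.0, limma-voom 3.58.1, other scalings and filters, a replicate block, and each library left out were alternatives. Members and lists were chosen with earlier results of these data known. Named genes were the members, called genes of related lists (at most 4 each, otherwise the highest mean CPM), the marker with the highest mean CPM of a list, and the nearest profiles. Ngp and Asprv1 are also neutrophil markers here. Ly96, Ager, Anxa1, Anxa2, Cebpe, Padi4, Prtn3, Mpo, Flt3, Ctsg, Ms4a3, Csf3r, Camp, Stfa2l1, Ltf, Tyrp1, C1qb, Ly6c2, Slpi, Slc22a17, S100a1, S100a16, S100b and Gm6522 were added after their values were seen.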

Additional observations from a re-analysis of the deposited data

How the results depend on the processing

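Over all genes 1008 rose and 851 fell, against 1543 and 1505 with DESeq2 and, with single libraries left out, 64 to 1625 and 24 to 1216. Of the members, 1 rose (0 to 1 with single libraries left out) and 0 fell (0 to 1, Chil3 without LNP-GFP 1). With DESeq2, which gave Elane no adjusted p, and with the stricter filter, which removed it, 0 rose. Genes of the related lists that rose numbered 4 (1 to 7) and those that fell 6 (1 to 9). The log2 fold change of S100a8 was -0.040 with upper-quartile factors and -0.48 to 0.85 with single libraries left out. That of S100a9 was 0.17 with limma-voom and -0.70 to 0.65, that of Lcn2 0.13 with limma-voom and -0.80 to 0.41, and that of S100a11 -0.16 to 0.084. The cause of these shifts was not tested. S100a4, S100a6, S100a10, Retnlg, Chil3 and Elane kept their direction in every alternative that gave a value.

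The replicate numbers were not shown to pair the libraries: deviations of same-numbered libraries correlated at 0.21, -0.24 and 0.03 across genes. With the replicate block 103 genes rose and 52 fell, 0 members rose, 1 gene of the related lists rose and 1 fell, and Lcn2 had a log2 fold change of 0.016. Counting error limits Elane, at 0 to 25 counts per library.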

Other observations

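Slpi, a secreted inhibitor of neutrophil elastase, and S100b, an S100 gene of melanocytic and glial cells, shared the LNP-GFP order of the variable members. Slpi measured 200.3, 678 and 446 CPM in the LNP-GFP libraries and 216, 152 and 174 CPM in the LNP-Gsdme libraries. S100b measured 2.66, 10.3 and 4.995 CPM in the LNP-GFP libraries and 0.899, 1.56 and 4.48 CPM in the LNP-Gsdme libraries, which is the order of the melanoma markers in both groups. Neither passed the test (edgeR adjusted p = 0.0897 for Slpi and 0.233 for S100b).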
